A study of Mus musculus with 8 samples.

Results

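The genes described here encode the respiratory chain and ATP synthase, the 5 enzyme complexes of oxidative phosphorylation in the inner mitochondrial membrane. They were defined by gene symbol, with earlier results of these data known. The set holds the protein-coding genes whose symbols begin with mt-Nd, mt-Co, mt-Atp, mt-Cyt, Uqcr, Atp5, Cox4 to Cox8, or Nduf followed by a, b, c, s or v, together with Sdha, Sdhb, Sdhc and Sdhd. This gave 107 of the 21905 protein-coding gene identifiers with a symbol, 94 encoded in the nucleus and 13 on the mitochondrial chromosome. Complex I had 43 of them (36 nuclear, 7 mitochondrial), complex II 4 (all nuclear), complex III 9 (8 nuclear, 1 mitochondrial), complex IV 23 (20 nuclear, 3 mitochondrial) and complex V 20 (18 nuclear, 2 mitochondrial). The other 8 are complex I assembly factors, which bear the Ndufaf name and help to build the complex without staying in it. Ndufa4 and its paralogue Ndufa4l2 carry complex I names but were counted with complex IV, where Ndufa4 is now placed.

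Complex I (NADH dehydrogenase) and complex II (succinate dehydrogenase) pass electrons to ubiquinone, complex III passes them to cytochrome c and complex IV (cytochrome c oxidase) passes them to oxygen. Complexes I, III and IV pump protons, and complex V (ATP synthase) makes ATP as the protons flow back. Every complex except complex II is built from proteins of both genomes, and articular chondrocytes, which live in poorly oxygenated tissue without blood vessels, rely largely on glycolysis.

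RNA was sequenced from cartilage of the medial knee of individual male, wild-type C57Bl/6J mice, 4 per group. The naive mice (day 0) had no surgery and were 11 weeks old. The DMM mice had the medial meniscus of the left knee destabilised by cutting the ligament that holds it to the tibia, a model of post-traumatic osteoarthritis, and were sampled 42 days later at 17 weeks of age. No sham-operated mice were analysed here, so surgery and the difference in age cannot be told apart. Total estimated counts lay between 12627769.6 and 16230518 per naive library and between 12479442 and 16548002 per DMM library. Values are given as normalised counts, that is, estimated counts divided by the DESeq2 size factor of the library, and the 4 values of a gene are listed from replicate 1 to replicate 4, a numbering without meaning. A gene was called lower or higher in DMM cartilage at a Benjamini-Hochberg adjusted p (DESeq2 Wald test, all genes tested together) of 0.05 or less, and log2 fold changes are DMM over naive with their SE.

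The labels name cartilage and chondrocytes, and the cartilage genes Col2a1 and Acan were abundant in every library, but transcripts of bone marrow were abundant too. The summed level of 10 chondrocyte markers was 34347 to 66570.1 in naive and 86159 to 158770.2 in DMM libraries, and 6 of the 10 were called higher. The summed level of 8 neutrophil lineage markers was 125210.5 to 187813 in naive and 54963 to 112806 in DMM libraries, and all 8 were called lower. For 8 erythroid markers it was 102898 to 196930.0 and 53443 to 112541, with 7 of 8 called lower, and none of the neutrophil or erythroid markers was listed at 0 in any library. The 6 osteoblast markers were all called higher, with sums of 126144 to 217269 in naive and 330883 to 419564 in DMM libraries, and 5 of 6 endothelial markers were called higher. The 6 B cell markers all had log2 fold changes above 0, and 1 was called higher. Their sums were 2526 to 3489.5 in naive and 2727 to 5912 in DMM libraries. The sums of 6 macrophage markers overlapped, at 5974 to 7157 in naive and 5532 to 6844.5 in DMM libraries. Fewer cells of a type and less of a transcript per cell cannot be told apart in such bulk RNA.

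Most nuclear genes of the chain had log2 fold changes slightly below 0 in DMM against naive cartilage, in every complex with the main scaling (with total count scaling in complexes I, III, IV and V but not in complex II or the assembly factors), whereas most mitochondrially encoded genes lay at or above 0. Of 102 chain genes with an adjusted p, 14 were called lower and 1, Ndufa4l2, was called higher. With total count scaling, 7 were lower and 3 higher, but 34.8% rather than 51.4% of all genes then lay below 0. The share of all genes called with that scaling is not given, so those counts have no background. The 14 are 13.7% of those tested, beside 10.5% of all 18707 genes tested (15.3% of the 11036 genes averaging 100 normalised counts or more), so the share of calls was close to the background. The 1 higher call is 0.98%, beside 10.7% of all genes. With a change of 1.5-fold or more also required, 4 were lower (Cox6b2, Atp5k, Cox5a and Ndufa4), beside 5.63% of all genes, and Ndufa4l2 alone was higher, beside 7.38%. The 4 DMM libraries lay below all 4 naive libraries for 17 chain genes, or 16.7%, beside 9.86% of all genes (14% of those averaging 100 or more), and above them for none, beside 11.5%. Not tested for lack of counts were Cox7a1, Cox7b2, Cox8b, Cox8c and a second identifier named Atp5o that had 0 counts throughout.

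The directions were counted for each genome. Among 89 nuclear genes tested, 83 had a log2 fold change below 0 and the median was -0.25, and among the 13 mitochondrial genes 4 were below 0 and the median was 0.03. Over all genes tested, 51.4% were below 0 and the median was -0.01, and over the 11036 well-counted genes 55.6% were below 0 and the median was -0.05. When libraries were scaled by their total count instead, the median of all genes moved to 0.14, and 59 of 89 nuclear and 2 of 13 mitochondrial genes were then below 0. Relative to the median of all genes, the nuclear median was -0.23 and the mitochondrial median 0.05 with either scaling.

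**Figure D1:**
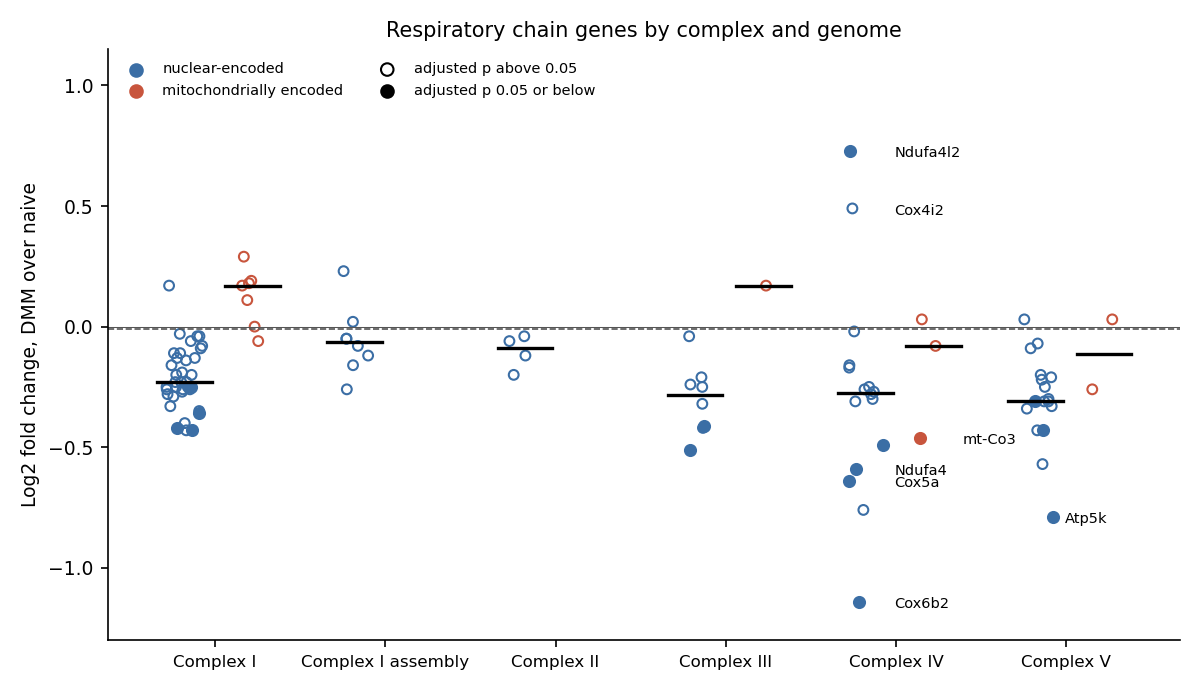
Log2 fold change (DMM over naive, vertical axis) of each tested chain gene by complex (horizontal axis), with nuclear genes in blue, mitochondrial genes in red, called genes filled and uncalled genes open. Black bars are medians and the dashed line is the median of all genes tested. Blue points lie mostly below 0 in complexes I, III, IV and V, around a median of -0.23 to -0.31, although scaling by total count would raise every point by about as much as the median of all genes rises, to 0.14.

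The summed normalised counts of the 94 nuclear genes were 53098, 56575, 47029 and 45798 in the naive and 39080.0, 41026, 47072 and 43328 in the DMM libraries. The naive mean was 50625 ± 5091 and the DMM mean 42626 ± 3435 (SD, n = 4), and DMM replicate 3 lay above 2 of the 4 naive libraries, so the groups overlapped. The summed counts of the 13 mitochondrial genes were 130019, 114354, 109816 and 112714 in the naive and 110454, 109335, 133843 and 131133 in the DMM libraries, which overlapped. The mitochondrial sum divided by the nuclear sum, which does not depend on how libraries are scaled, was 2.45, 2.02, 2.34 and 2.46 in the naive and 2.83, 2.67, 2.84 and 3.03 in the DMM libraries. This ratio was 2.32 ± 0.205 in naive and 2.84 ± 0.148 in DMM cartilage (SD, n = 4), 1.23 times as high, and the groups did not overlap. With counts of nuclear copies of the mitochondrial genes added (described with those genes), it was 2.75, 2.25, 2.67 and 2.78 in naive and 3.17, 2.99, 3.16 and 3.52 in DMM libraries, again without overlap.

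**Figure D2:**
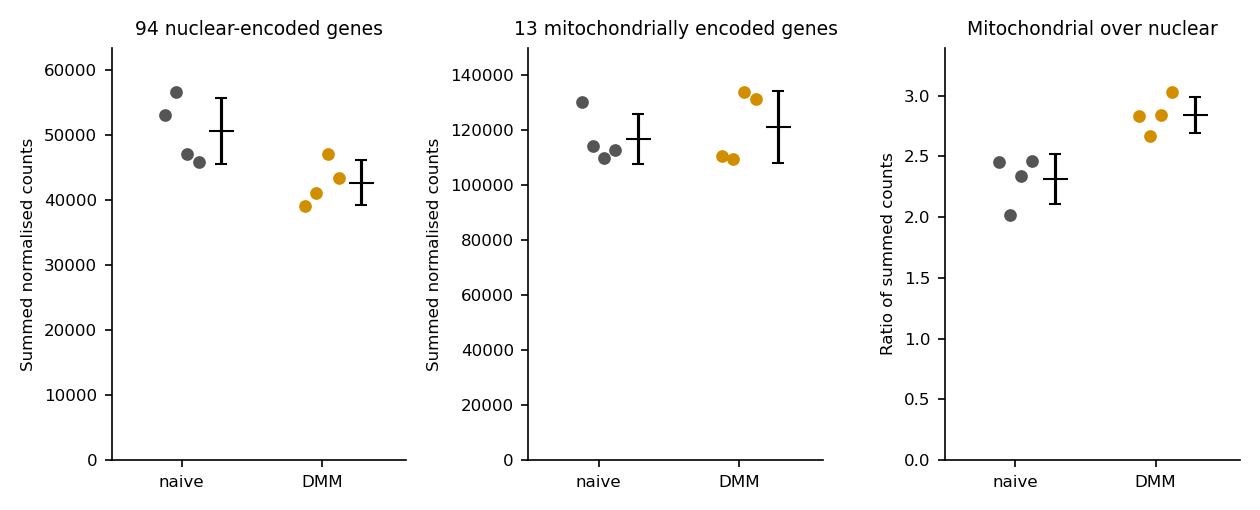
Summed normalised counts of the 94 nuclear genes (left) and the 13 mitochondrial genes (middle), and the ratio of the sums (right), for each naive (grey) and DMM (orange) library, with the mean and SD of each group beside the points. The sums of the groups overlap in the left and middle panels, while the 4 DMM ratios, from 2.67 to 3.03, lie above the 4 naive ratios, from 2.02 to 2.46.

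The sums of the neutrophil and erythroid markers, taken here for marrow and mostly called lower, are given beside the level of the nuclear chain genes in each library. In each library, the median over the nuclear genes of the log2 level minus the gene's mean over all libraries was 0.19, 0.274, 0.021 and 0 in the naive and -0.254, -0.137, 0.049 and -0.078 in the DMM libraries. The erythroid sums were 159602, 196930.0, 114358 and 102898 in the naive libraries, the same order as the medians, and 57397, 53443, 112541 and 53566 in the DMM libraries, where replicate 3 was highest for both but the rest followed another order. The neutrophil sums were 157025, 187813, 175306 and 125210.5 in the naive and 54963, 74246, 111222 and 112806 in the DMM libraries, and their order differed from that of the medians in both groups. With a DESeq2 covariate for the mean log2 level of both marrow lists, a term that itself differs between the groups, no chain gene was called (6 at an unadjusted p under 0.05), 24 of 86 nuclear and 1 of 13 mitochondrial genes were below 0, and the medians were 0.11 and 0.29. The log2 fold changes of the called genes moved unequally: Ndufs1 was at -0.24 (from -0.25), Atp5k at -0.54 (from -0.79) and mt-Co3 at -0.31 (from -0.46), whereas Cox5b was at -0.09 (from -0.49). The part of marrow cells in the nuclear pattern was not otherwise tested.

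Among the 36 nuclear genes of complex I, 4 (11.1%) were called lower, beside 10.5% of all genes and 15.3% of well-counted genes, and none higher. The DMM libraries lay below all naive libraries for 6, or 16.7%, beside 9.86% of all genes and 14% of well-counted genes. All but Ndufa7 had a log2 fold change below 0 (median -0.23, or -0.21 relative to all genes with total count scaling, where 23 of 36 were below 0). The 7 core subunits, which hold the flavin and the iron-sulphur clusters that carry electrons, included 2 of the calls. Ndufv1, the flavoprotein that oxidises NADH, had 742, 810.2, 589.7 and 589.6 normalised counts in the naive and 531, 533, 530.1 and 528 in the DMM libraries. The DMM values lay within a narrow band below all naive values (log2 fold change -0.36 ± 0.13 SE, adjusted p = 0.0331). Ndufs1, the largest iron-sulphur subunit, had 849, 855, 913 and 883 in the naive and 714, 729, 743 and 750.0 in the DMM libraries, without overlap (log2 fold change -0.25 ± 0.09 SE, adjusted p = 0.0197). The change was small for both. Of the 8 fits that left out 1 library, Ndufv1 was called in 2 and Ndufs1 in 0.

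Of the other core subunits, Ndufs8, Ndufv2, Ndufs7 and Ndufs3 did not pass the test, with adjusted p of 0.13, 0.282, 0.184 and 0.257. Their log2 fold changes were -0.28, -0.26, -0.25 and -0.20.

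Both other complex I calls were accessory subunits, which surround the core. Ndufs4, whose loss in mice causes a Leigh-like encephalopathy, had 541, 502, 526 and 484 in the naive and 312, 319, 464 and 429 in the DMM libraries. DMM replicates 1 and 2 were far below the rest and replicates 3 and 4 just below the lowest naive library (log2 fold change -0.43 ± 0.16 SE, adjusted p = 0.0313). Ndufa12, which sits near the NADH-oxidising module, had 288, 297, 312 and 339 in the naive and 188, 216, 253 and 266 in the DMM libraries, without overlap (log2 fold change -0.42 ± 0.15 SE, adjusted p = 0.0287). Ndufa12 shares 20.7% of its 31-base words with other genes, chiefly Gm15920, so part of its count depends on how reads were divided. Ndufb7 and Ndufb11 also had groups that did not overlap but missed the threshold (adjusted p = 0.057 and 0.0758). None of the 4 complex I calls reached a change of 1.5-fold.

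Of the 8 assembly factors of complex I, none was called by DESeq2, edgeR or limma-voom (0 at an unadjusted p under 0.05). Their log2 fold changes ran from -0.26 to 0.23, with 6 of 8 below 0 and a median of -0.07. Ndufaf3 had -0.26, Ndufaf7 -0.16 and Ndufaf5 0.23 as log2 fold change, with adjusted p of 0.4, 0.554 and 0.61. Their levels were low, with naive means from 35.1 (Ndufaf6) to 148 (Ndufaf8) normalised counts per kilobase of transcript.

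Complex II, which also works in the citrate cycle and has no mitochondrially encoded part, showed small differences and no calls by these tools (0 at an unadjusted p under 0.05). Sdha, the flavoprotein that oxidises succinate, had 1814, 1896, 1748 and 1688 in the naive and 1639, 1674, 1846 and 1688 in the DMM libraries, which overlapped (log2 fold change -0.06 ± 0.09 SE, adjusted p = 0.696). Sdhb, the iron-sulphur subunit, and the membrane anchors Sdhc and Sdhd had log2 fold changes of -0.12, -0.04 and -0.20, with adjusted p of 0.488, 0.895 and 0.265. The 95% intervals were -0.23 to 0.11 for Sdha, -0.34 to 0.09 for Sdhb, -0.28 to 0.21 for Sdhc and -0.45 to 0.04 for Sdhd. All 4 were below 0, but only Sdhd remained so when libraries were scaled by total count. Whether complex II differed from the other complexes was not tested.

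In complex III, 2 of 8 nuclear genes (25.0%) were called lower, beside 10.5% of all genes and 15.3% of well-counted genes, a share that rests on few genes. All 8 were below 0 (median -0.28, and 7 of 8 below 0 with total count scaling). Uqcrfs1, the Rieske iron-sulphur protein that takes electrons from ubiquinol, had 548, 619, 430.2 and 432 in the naive and 344, 360.1, 338 and 382 in the DMM libraries. Every DMM library lay below every naive library (log2 fold change -0.51 ± 0.15 SE, adjusted p = 0.00528). Uqcrc1, a core structural subunit, had 1354, 1381, 1141 and 1126 in the naive and 843, 1024, 952 and 939.5 in the DMM libraries, again without overlap (log2 fold change -0.41 ± 0.12 SE, adjusted p = 0.0038). Both were called in all 8 fits that left out 1 library and by edgeR. Uqcr10, a small subunit, had -0.42 and missed the threshold (adjusted p = 0.0703), and the remaining 5 had adjusted p between 0.1 and 0.902. Cyc1, the cytochrome c1 of the complex, whose symbol the choice of genes did not take in, had -0.31 (adjusted p = 0.123).

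Complex IV held the largest changes in both directions. Of 16 nuclear genes tested, 4 (25.0%) were called lower, beside 10.5% of all genes and 15.3% of well-counted genes. The 1 called higher is 6.25%, beside 10.7% and 14.3%, and both shares rest on few genes. Of the 16, 14 were below 0 (12 with total count scaling) and the median was -0.28. Cox5a (ENSMUSG00000000088, chr9:57521274-57532426, plus strand, 5 exons) and Cox5b are nuclear subunits bound to the matrix side of the enzyme. Cox5a had 344, 302, 303 and 252 in the naive and 182, 152, 211 and 228 in the DMM libraries, each DMM value below the lowest naive value (log2 fold change -0.64 ± 0.17 SE, adjusted p = 0.00202). Cox5b had 1370.1, 1316, 1127 and 1142 in the naive and 746, 849, 1002 and 940.4 in the DMM libraries, also without overlap (log2 fold change -0.49 ± 0.13 SE, adjusted p = 0.00186). Cox5a and Cox5b share 13.8% and 16.1% of their 31-base words with other genes.

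Ndufa4 and Ndufa4l2 moved in opposite directions. Ndufa4 (ENSMUSG00000029632, chr6:11900292-11907497, minus strand, 4 exons), the subunit now assigned to complex IV, had 316, 305, 250.4 and 231 in the naive and 160.1, 198, 180.3 and 198 in the DMM libraries. All DMM values lay below all naive values (log2 fold change -0.59 ± 0.16 SE, adjusted p = 0.00233). Ndufa4l2 (ENSMUSG00000040280, chr10:127514967-127517154, plus strand, 4 exons), a hypoxia-induced paralogue known as a target of HIF-1, had 197, 170.3, 284 and 205 in the naive and 282, 366, 416 and 359 in the DMM libraries. It rose (log2 fold change 0.73 ± 0.19 SE, adjusted p = 0.00134), although DMM replicate 1 and naive replicate 3 were level at 282 and 284. Only 0.4% of the 31-base words of Ndufa4l2 occur in other genes. Per kilobase of transcript, Ndufa4l2 stood at 40.8, 36.5, 74 and 57.9% of Ndufa4 in the naive libraries and at 115, 121, 151 and 119% in the DMM libraries, so that it passed the level of Ndufa4 in each DMM library and in no naive library. The chondrocyte marker sum, which also differed between the groups, was lowest of the DMM group in replicate 1 (86159), as was Ndufa4l2, but highest of the naive group in replicate 2 (66570.1), where Ndufa4l2 was lowest. The part of chondrocyte content in this difference was not tested. With the marrow covariate, Ndufa4l2 had a log2 fold change of 0.91 and was not called. Both calls held in every fit that left out 1 library and with edgeR.

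**Figure D3:**
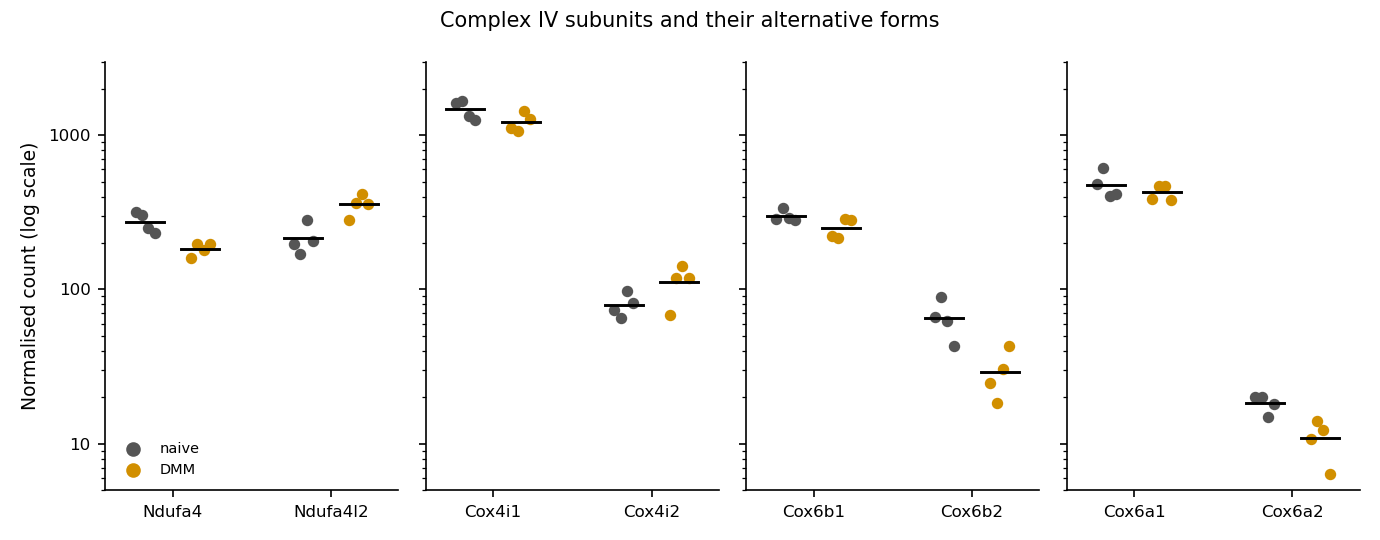
Normalised counts (vertical log axis) of 4 complex IV genes and their alternative forms in each naive (grey) and DMM (orange) library, with the group mean as a bar. Ndufa4 falls from between 231 and 316 to between 160.1 and 198 while Ndufa4l2 rises from between 170.3 and 284 to between 282 and 416, and Cox6b2 falls while Cox6b1, Cox4i1, Cox4i2, Cox6a1 and Cox6a2 did not pass the test.

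Other alternative forms of complex IV subunits did not share one direction. Cox4i2, the form of subunit 4 that is expressed in lung and induced by low oxygen, had 73.9, 65.2, 97.4 and 81.6 in the naive and 68, 119, 142 and 118 in the DMM libraries, with DMM replicate 1 among the naive values (log2 fold change 0.49 ± 0.25 SE, 95% interval -0.01 to 0.99, adjusted p = 0.164). The widespread form Cox4i1 had 1467 ± 205 in naive and 1223 ± 161 in DMM cartilage (log2 fold change -0.26 ± 0.14 SE, adjusted p = 0.184). Per kilobase, Cox4i2 was 5.82% ± 1.66 of Cox4i1 in naive and 9.51% ± 2.27 in DMM cartilage (SD, n = 4), with overlapping groups.

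Cox6b2 (ENSMUSG00000051811, chr7:4751792-4753094, minus strand, 3 exons), a form best known from testis, had 66, 89.1, 62.1 and 43.1 in the naive and 24.9, 18.3, 30.5 and 43.3 in the DMM libraries. It fell with the largest fold change of the chain genes tested (log2 fold change -1.14 ± 0.33 SE, adjusted p = 0.00457), but from low counts, and DMM replicate 4 was level with naive replicate 4. Its widespread partner Cox6b1 had -0.25 (adjusted p = 0.243). Cox6b2 was also the called gene that lost most with the marrow covariate, at -0.17 against -1.14 without it. Cox6a2, a heart and muscle form, had 20.2, 20, 15 and 18.1 in the naive and 10.8, 14, 12.3 and 6.32 in the DMM libraries, and did not pass the test (log2 fold change -0.76 ± 0.43 SE, adjusted p = 0.215) although the groups did not overlap. The muscle forms Cox7a1 and Cox8b had very few counts, 3.52 to 7.98 and 0 to 4.15 per library. Cox8b was highest in DMM replicate 1, where Cox7a1 was lowest of the DMM group (4.15) and Cox6a2 was at 10.8. That library also had the highest sum of 9 skeletal muscle markers, 1538, against 66.8 to 179.5 in the other DMM libraries, and naive replicate 3 had 569 against 86.5 to 164. The remaining nuclear complex IV genes, among them Cox6a1 (-0.16), Cox7a2 (-0.28), Cox7b (-0.31), Cox8a (-0.30) and the supercomplex factor Cox7a2l (-0.02), had adjusted p of 0.106 or more.

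In complex V, 3 of 17 nuclear genes tested (17.6%) were called lower, beside 10.5% of all genes and 15.3% of well-counted genes. Of the 17, 16 were below 0 (14 with total count scaling) and the median was -0.31. Atp5k (ENSMUSG00000050856, chr5:108433244-108434448, minus strand, 4 exons), the e subunit, which lies in the membrane and takes part in forming rows of ATP synthase dimers, had the smallest adjusted p of all chain genes. Its values were 412, 378, 426 and 412 in the naive and 218, 182, 261 and 281 in the DMM libraries. The lowest naive library lay well above the highest DMM library (log2 fold change -0.79 ± 0.15 SE, adjusted p = 1.34e-05), and the call held in every fit that left out 1 library and with edgeR. Atp5k shares 10.9% of its 31-base words with other genes.

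Atp5a1, the alpha subunit of the catalytic head, was the most counted of the 3. It had 4760.2, 5425, 4212 and 4092 in the naive and 3580.1, 3837, 3867 and 3583 in the DMM libraries, without overlap (log2 fold change -0.31 ± 0.11 SE, adjusted p = 0.0281). Atp5g2, a gene for the c subunit of the rotating ring, had 302, 391, 315 and 258 in the naive and 242, 217, 249 and 226 in the DMM libraries, without overlap (log2 fold change -0.43 ± 0.15 SE, adjusted p = 0.0263), but 40.2% of its 31-base words occur in other genes, chiefly Gm10175. The c subunit is also encoded by Atp5g1 and Atp5g3, which had log2 fold changes of 0.03 and -0.25 (adjusted p = 0.912 and 0.282). The beta subunit Atp5b, with 4170.2 ± 671 in naive and 3316 ± 413 in DMM cartilage, missed the threshold (log2 fold change -0.33 ± 0.14 SE, adjusted p = 0.0746), as did Atp5f1 (-0.34, adjusted p = 0.052) and Atp5mpl (-0.43, adjusted p = 0.056).

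**Figure D4:**
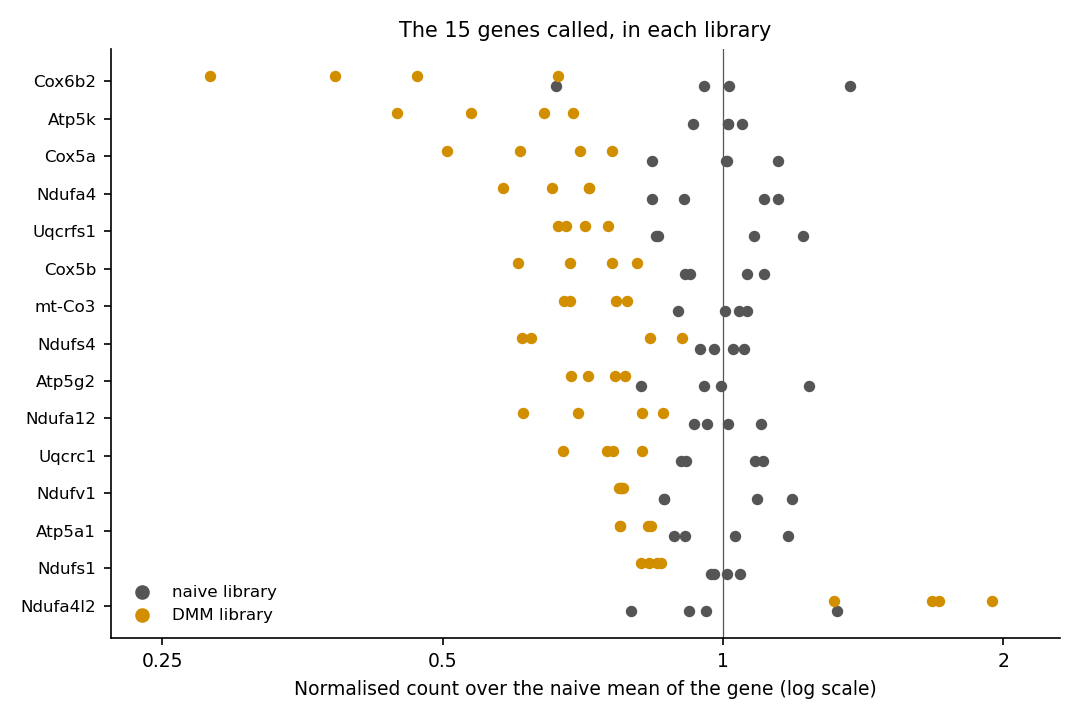
Normalised count of each of the 15 called chain genes divided by the naive mean of that gene (horizontal log axis), with 1 point per naive (grey) and DMM (orange) library and genes ordered by fold change. The DMM points lie left of the naive points without overlap for 13 of the 14 genes called lower, Cox6b2 being the exception, and right of most naive points for Ndufa4l2. These genes were picked by a test on the same values, so the separation adds no support to the calls. Among all chain genes tested, 16.7% were separated in the lower direction, beside 9.86% of all genes.

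Of the 15 calls, 9 held in all 8 fits that left out 1 library (Atp5k, Cox5a, Cox5b, Cox6b2, Ndufa4, Ndufa4l2, Uqcrc1, Uqcrfs1 and mt-Co3) and 11 were also called by edgeR. The 6 others (Ndufs1, Ndufv1, Ndufs4, Ndufa12, Atp5a1 and Atp5g2) held in fewer of these fits: Ndufs1 in 0, Ndufv1, Ndufa12 and Atp5g2 in 2 each, and Ndufs4 and Atp5a1 in 3 each. The count of lower calls, 14 with all libraries, was 8 when naive replicate 1, naive replicate 2, DMM replicate 1 or DMM replicate 2 was left out. Leaving out at least 1 of the other libraries raised it above 14, as described under the dependence on processing. The share of all genes called in these fits is not given.

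The 13 mitochondrial genes are transcribed as long precursors from both strands of the mitochondrial chromosome and code for the core of complexes I, III, IV and V. Per kilobase of transcript they had higher naive means than every nuclear gene, except mt-Atp8. The naive means were 22066 ± 1989 for mt-Co1, 18905 ± 2850.1 for mt-Atp6 and 12614 ± 755 for mt-Cytb (SD, n = 4), and at the low end 2480.0 ± 207 for mt-Nd3 and 786 ± 40 for mt-Atp8. The highest nuclear genes on this scale were Cox6c at 2201 ± 299, Atp5b at 2176 ± 350.1 and Atp5h at 2173 ± 347. All 13 together held 0.784% ± 0.0952 of the counts in naive and 0.905% ± 0.1 in DMM cartilage, beside 0.338% ± 0.0237 and 0.318% ± 0.0245 for the 94 nuclear genes (SD, n = 4), while the mitochondrial ribosomal RNAs held 7.03% to 9.09%.

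The 7 complex I genes of the mitochondrial chromosome were above 0 in 6 of 7 cases, with a median of 0.17, and none was called by DESeq2, edgeR or limma-voom (1 at an unadjusted p under 0.05). mt-Nd3 came closest, with 953, 857, 777 and 865 in the naive and 1016, 923, 1148 and 1146 in the DMM libraries and a single DMM library (replicate 2) within the naive range (log2 fold change 0.29 ± 0.12 SE, adjusted p = 0.0542). mt-Nd5, the most counted of the 7, had 16841, 14971, 14837 and 15195 in the naive and 15398, 15645, 18059 and 17448 in the DMM libraries, which overlapped (log2 fold change 0.11 ± 0.09 SE, adjusted p = 0.481). mt-Nd2 had 0.17, mt-Nd4 0.18, mt-Nd4l 0.19, mt-Nd1 -0.06 and mt-Nd6, which lies on the opposite strand to the rest, 0.00, with adjusted p of 0.285 or more. mt-Cytb, the mitochondrial subunit of complex III, had 0.17 (adjusted p = 0.269), with DMM replicates 3 and 4 at 17769 and 17921 above every naive library and replicates 1 and 2 within their range.

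mt-Co3 (chrM:8607-9390, a core subunit of complex IV) was the single mitochondrial gene called, with 4577, 4827, 4730.5 and 4070.5 in the naive and 3118, 3593, 3491 and 3073 in the DMM libraries, without overlap (log2 fold change -0.46 ± 0.10 SE, adjusted p = 0.000116). This call changed with how reads were divided between the gene and a copy of it in the nuclear genome. A stretch of chromosome 1 carries near-perfect copies of several mitochondrial genes side by side, and Gm28437 there (chr1:24613189-24613971) matches mt-Co3 at 783 of 783 aligned bases. The copies of mt-Co3 held 27.4% to 61.5% of the joint counts in a library. With them added, the sums were 7679.8, 7877, 6512 and 6666 in the naive and 7079, 6664, 7434 and 7982 in the DMM libraries, the log2 fold change was 0.02 ± 0.11 SE and the adjusted p 0.927, so that the call was lost.

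mt-Co2 lost a larger share of its joint counts to copies. Its nuclear copies, chiefly Gm28661 (chr1:24614885-24615565), which is identical over 681 of 681 aligned bases, held 53.4% to 83.2% of the joint counts. Alone, mt-Co2 had 4574, 2806, 3485 and 3505 in the naive and 2560.1, 1582, 5331 and 4107 in the DMM libraries (log2 fold change -0.08 ± 0.39 SE, adjusted p = 0.925), and with its copies it had 11779, 10501, 10271 and 9922 in the naive and 9385, 9404, 11443 and 12869 in the DMM libraries (log2 fold change 0.02 ± 0.13 SE, adjusted p = 0.943). The SE shrank from 0.39 to 0.13. mt-Atp6 gave 5.22% to 20.3% of its joint counts to copies, mt-Co1 2.76% to 12.8% and mt-Nd4l 0% to 30.6%, and for the remaining genes copies held at most 0.0711%. mt-Co1, mt-Atp6 and mt-Atp8 had log2 fold changes of 0.03, 0.03 and -0.26 alone (adjusted p = 0.905, 0.908 and 0.509) and 0.04, -0.05 and -0.26 with copies. The reading frames of mt-Atp8 and mt-Atp6, and of mt-Nd4l and mt-Nd4, overlap by a few bases.

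**Figure D5:**
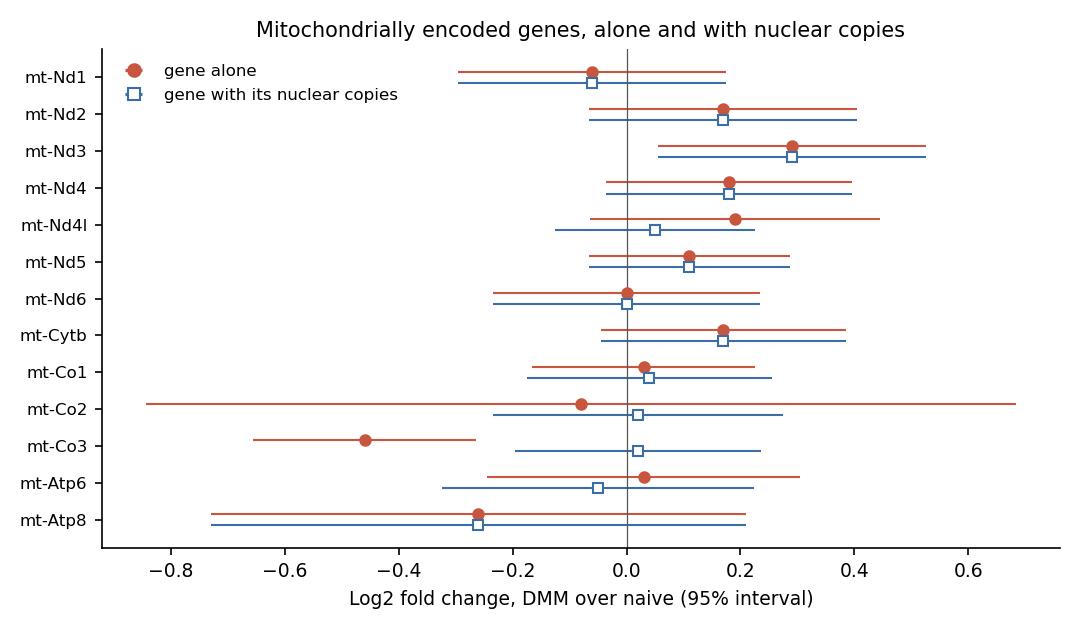
Log2 fold change (DMM over naive, horizontal axis) of each mitochondrially encoded gene, from its own counts (red circles) and with the counts of its nuclear copies added (open blue squares), with 95% intervals. The interval of mt-Co3 lies below 0 only for the gene's own counts, the wide interval of mt-Co2 narrows once copies are added, and mt-Nd4l moves towards 0, and the other genes stay close to where they were.

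Upstream sequence was examined for the nuclear genes, most of which had log2 fold changes slightly below 0. RefSeq (GRCm38.p6) windows of 300 bases, from 250 before to 50 after an annotated start, were found for 77 of the 94 identifiers, which stand for 76 genes. NRF1, a factor long linked to respiratory chain promoters, binds the motif GCGCATGC or its reverse complement GCATGCGC. Among the 76 genes, 12 (15.8%) had this motif in a window, beside 3.05% of the 27025 genes with a window, and of the called genes with a window 3 of 11 (Atp5k, Atp5g2 and Uqcrc1) had it, beside 9 of 62 tested but not called. The YY1 motif AAGATGGC (or GCCATCTT) occurred for 11 of 76 genes, or 14.5%, beside 3.19% of all genes. Of the called genes 1 of 11 (Ndufs4) had it, beside 10 of 62 not called. The motif CCGGAAGT (or ACTTCCGG) of GABPA and other ETS factors occurred for 5 genes, or 6.6%, beside 4.31%, and TCAAGGTCA (or TGACCTTGA) of the oestrogen-related receptors for 2, or 2.6%, beside 0.47%. Of the called genes 0 of 11 had either motif, beside 5 of 62 not called for the ETS motif and 2 of 62 for the receptor motif. The HIF core ACGTG (or CACGT) occurred for 19, or 25.0%, beside 21.78%, with 3 of 11 called and 14 of 62 not called. Whether called and uncalled genes differed in any motif was not tested. Ndufa4l2, Cox4i1, Cox4i2 and Ndufs1 were among the genes without a window. A match is a run of letters only, not evidence of binding.

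The windows of the called genes with the NRF1 motif are shown to place the motif in each. That of Cox5a, which lacks the NRF1 motif but has the HIF core, is shown beside them. The windows of Ndufa4 and Cox6b2, also called with a 1.5-fold change, had none of the motifs and are not shown. The windows shown are Atp5k at chr5:108434350-108434649 (minus strand), Atp5g2 at chr15:102670998-102671297 (minus strand), Uqcrc1 at chr9:108936398-108936697 (plus strand) and Cox5a at chr9:57520982-57521281 (plus strand), each written 5′ to 3′ along the gene. Capitals mark the NRF1 motif on either strand, whose overlapping matches join into GCGCATGCGC, and the HIF core.
Atp5k: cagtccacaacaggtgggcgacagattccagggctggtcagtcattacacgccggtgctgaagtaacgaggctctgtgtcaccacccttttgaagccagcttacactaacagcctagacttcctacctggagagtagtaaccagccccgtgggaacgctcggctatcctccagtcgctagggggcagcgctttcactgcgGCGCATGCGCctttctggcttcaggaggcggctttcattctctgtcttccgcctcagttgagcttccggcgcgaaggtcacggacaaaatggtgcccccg
Atp5g2: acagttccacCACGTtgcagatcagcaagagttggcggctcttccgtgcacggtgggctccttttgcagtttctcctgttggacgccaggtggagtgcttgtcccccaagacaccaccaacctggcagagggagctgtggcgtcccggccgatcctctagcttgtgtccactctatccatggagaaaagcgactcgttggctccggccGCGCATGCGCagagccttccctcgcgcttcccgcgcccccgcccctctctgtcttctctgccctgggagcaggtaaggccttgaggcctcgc
Uqcrc1: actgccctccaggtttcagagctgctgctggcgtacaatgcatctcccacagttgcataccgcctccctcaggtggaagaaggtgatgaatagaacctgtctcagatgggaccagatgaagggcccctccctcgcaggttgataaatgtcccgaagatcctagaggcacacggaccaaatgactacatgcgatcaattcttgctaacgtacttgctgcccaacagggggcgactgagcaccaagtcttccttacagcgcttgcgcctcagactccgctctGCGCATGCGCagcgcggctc
Cox5a: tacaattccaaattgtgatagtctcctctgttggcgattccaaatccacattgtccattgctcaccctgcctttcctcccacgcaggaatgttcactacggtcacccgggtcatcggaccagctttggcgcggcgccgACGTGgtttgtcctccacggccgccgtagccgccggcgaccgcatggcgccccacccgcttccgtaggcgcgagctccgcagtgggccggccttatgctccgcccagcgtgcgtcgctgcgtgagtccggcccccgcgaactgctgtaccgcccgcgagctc

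Genes of or around the chain that the choice by symbol did not take in showed few calls, but most of the lists are short. Of all genes tested, 10.5% were called lower and 10.7% higher. None of 43 assembly factors for the complexes passed the test by DESeq2, edgeR or limma-voom (5 at an unadjusted p under 0.05, 23 below 0, median -0.01), with Cox17, a copper chaperone for complex IV, at -0.37 (adjusted p = 0.0571) and the complex II factor Sdhaf1 at 0.58 (adjusted p = 0.103). None of 15 genes for cytochromes c and ubiquinone synthesis passed it by these tools (3 at an unadjusted p under 0.05, 9 below 0, median -0.02), Coq8a being at 0.45 (adjusted p = 0.0955). The cytochromes Cyc1 and Cycs in that list were at -0.31 and -0.29 (adjusted p = 0.123 and 0.187). Of 16 genes for pyruvate dehydrogenase and the citrate cycle, 15 were below 0 (median -0.19) and 1 was called. This was Mdh2, the mitochondrial malate dehydrogenase, which had 1877, 1961, 1705 and 1629 in the naive and 1301, 1410.4, 1605 and 1492 in the DMM libraries, without overlap (log2 fold change -0.30 ± 0.11 SE, adjusted p = 0.0292). Suclg2, a subunit of succinyl-CoA ligase, had -0.30 (adjusted p = 0.0922).

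None of 12 genes for the upkeep and transcription of mitochondrial DNA was called by these tools (1 at an unadjusted p under 0.05, 10 below 0, median -0.14). Among them were Tfam, which packages that DNA (-0.32, adjusted p = 0.212), the mitochondrial RNA polymerase Polrmt (0.26, adjusted p = 0.209) and Lrpprc, which stabilises mitochondrial messages (-0.22, adjusted p = 0.129). None of 9 regulators of mitochondrial biogenesis was called either (1 at an unadjusted p under 0.05, 6 below 0, median -0.10), including Nrf1 (-0.24, adjusted p = 0.139), Gabpb1 (-0.19, adjusted p = 0.282) and Ppargc1a (-0.24, adjusted p = 0.693). Tfam and Ppargc1a were chosen after their values were seen. Among 20 genes for import, carriers and shape, 19 were below 0 (median -0.18) and the exception was called higher. This was Slc25a4, the ADP/ATP carrier form typical of heart and skeletal muscle, which had 869, 866, 797 and 901 in the naive and 1117, 1028, 1224 and 1031 in the DMM libraries, without overlap (log2 fold change 0.36 ± 0.10 SE, adjusted p = 0.00437). The sums of skeletal muscle markers overlapped between the groups and were highest in DMM replicate 1 (1538), where Slc25a4 was at 1117. The muscle sum was 97.1 in DMM replicate 3, where Slc25a4 was highest (1224), and 569 in naive replicate 3, where Slc25a4 was lowest (797). The part of muscle in the level of Slc25a4 was not tested. The chaperonin Hspd1 had -0.36 (adjusted p = 0.0546).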

How the data were processed

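The authors trimmed the reads with Trimmomatic, pseudo-aligned them with Kallisto and summed transcripts to genes with tximport, and deposited estimated counts per gene (expected counts). Kallisto splits reads shared by several transcripts, so 39.2% of the values were not whole. The methods of the study name mouse GRCm38 whereas the submitters' processing notes list GRCh38, and the methods and labels name different library kits. Neither conflict was resolved, and strand-specific counting was not stated.

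The estimated counts were rounded and tested with DESeq2 version 1.42.0 (Wald test with default filters and median-of-ratios scaling) in R version 4.3.3, naive against DMM, 4 mice each, without covariates, as the methods of the study name DESeq2. Alternatives used edgeR version 4.0.16 (quasi-likelihood), limma version 3.58.1 (voom), other scalings and filters, a replicate block and each library left out. Biotypes, coordinates and shared 31-base words came from GENCODE vM21 (GRCm38), and promoter windows from RefSeq. The tests were also checked on simulated data built from the means, dispersions and size factors of these libraries. The chain genes and the gene lists were chosen with earlier results of these data known.

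Genes were named by rule: all mitochondrial genes, genes called with a 1.5-fold change, the 3 smallest adjusted p in each complex, complex IV isoform pairs, the core complex I and the complex II subunits, and in each list of related genes the called genes with that change or else the 2 smallest adjusted p. Others were named after their values were seen, and 1 gene that the rule names is not reported here. The replicate numbers did not pair the samples: the deviations of same-numbered libraries from their group means correlated at 0.0498, 0.058, -0.119 and 0.117 over 18403 genes. The depth limits precision most for Cox7b2, Cox8b, Cox7a1, Cox6a2 and Cox6b2. Intervals cover the spread between these mice.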

Additional observations from a re-analysis of the deposited data

Results flagged for a closer look

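Values that stood far from the other 3 of their group, by Dixon's test at the 95% level, were found in 9 of 168 groups of 4 libraries, where chance flags about 1 in 20 groups, or 8.4. Cox7b2 was at 2.71 normalised counts in DMM replicate 4 and at 0 in the other DMM libraries, and Cox8b was at 4.15 in DMM replicate 1 and at 0 in the other DMM libraries. The mitochondrially encoded genes with their nuclear copies summed to 145922.6 in naive replicate 1, against 125386.2 to 127467.6.

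Mitochondrial ribosomal RNA took 9.09% of the counts in naive replicate 1, against 7.03% to 7.07% otherwise. It took 8.67% in DMM replicate 4, against 7.38% to 7.55%. The erythroid markers summed to 112541.2 in DMM replicate 3, against 53443.1 to 57396.8. The skeletal muscle markers summed to 569.4 in naive replicate 3, against 86.5 to 164.4, and to 1537.5 in DMM replicate 1, against 66.8 to 179.5. The endothelial markers summed to 3409.7 in naive replicate 2, against 4007 to 4064.8.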

How the results depend on the processing

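Of the chain genes, 14 were called lower and 1 higher, with medians of -0.247 (nuclear) and 0.035 (mitochondrial). Lower calls numbered 7 with total count scaling and 4 with a 1.5-fold change required. Except for the 1.5-fold rule, the share of all genes called is not given for the other settings. With the replicate block there were 8 lower calls and mt-Nd6 was at -0.004, and not every library correlated best with the library of its own number. Higher calls numbered 2 with TMM factors, with factors from nuclear protein-coding genes and with a minimum of 10 counts in 4 libraries, 3 with total count scaling and 5 with the correction for length and GC content. Total count scaling gave medians of -0.09 and 0.189, and the length and GC correction a mitochondrial median of 0.252. With the covariate for neutrophil and erythroid markers, 0 genes were called lower and 0 higher, and the medians were 0.111 and 0.293. Leaving out 1 library at a time gave 8 to 21 lower calls, 1 to 2 higher calls, nuclear medians of -0.284 to -0.172 and mitochondrial medians of -0.006 to 0.135. edgeR called 10 lower and 1 higher, and limma-voom 12 and 1.

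The log2 fold change of some genes crossed 0. With total count scaling these were mt-Nd1 (0.09), mt-Co2 (0.058), Sdhb (0.033), Sdha (0.093), Cox6a1 (0.006) and Sdhc (0.121). With the length and GC correction they were mt-Nd1 (0.142) and mt-Co2 (0.116), and with nuclear copies added mt-Co2 (0.021), mt-Atp6 (-0.052) and mt-Co3 (0.021), whose call was lost. With the marker covariate they were mt-Nd1 (0.219), mt-Co2 (0.774), mt-Atp8 (0.21), Ndufs4 (0.034), Ndufaf7 (0.088), Sdhd (0.093), Sdhb (0.032), Sdha (0.128), Sdhc (0.126), Uqcr10 (0.166), Cox4i1 (0.232), Cox6a1 (0.2), Cox6b1 (0.171), Cox7a2 (0.177), Cox7b (0.29), Ndufv2 (0.1), Ndufs7 (0.041), Ndufs8 (0.025), Cox17 (0.001), Coq8a (-0.011), Mdh2 (0.024) and Hspd1 (0.066), of which Ndufs4 and Mdh2 had been called. Without 1 library, mt-Nd1 lay between -0.11 and 0.019, mt-Nd6 between -0.066 and 0.057, mt-Co1 between -0.014 and 0.087, mt-Co2 between -0.385 and 0.156, mt-Atp6 between -0.035 and 0.133 and Sdhc between -0.101 and 0.028. The neutrophil sums of the groups did not overlap, so this covariate and the groups cannot be fully told apart. The causes were not tested.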
